A study of Mus musculus with 4 samples.

Results

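The CC chemokine ligands examined were 9 genes, *Ccl2*, *Ccl3*, *Ccl4*, *Ccl5*, *Ccl6*, *Ccl7*, *Ccl8*, *Ccl9* and *Ccl11*, taken by gene symbol from a table of 45802 symbols. Each of the 9 was measured in at least 1 library, and 7 were among the 14415 genes measured in all 4. The libraries were made from total RNA of mouse periosteal cells, 2 from PDGFRα reporter+ and 2 from PDGFRα reporter− cells. All cells came from femurs and tibias of male Pdgfrα-mTmG mice, 9 to 10 weeks old, given 5 daily tamoxifen injections of 150 mg/kg and used 14 days after the last injection. In these animals the *Pdgfra* promoter drives a tamoxifen-inducible Cre, and recombination replaces membrane tdTomato with membrane GFP, so that GFP marks cells with promoter activity at the time of tamoxifen and their descendants. Cells of 3 to 6 mice per the labels, with a higher range in the study's methods, were pooled and grown for 1 passage with 10 ng/mL bFGF. They were then sorted as CD31-, CD45- and Ter119-negative cells that carried GFP (reporter+) or tdTomato (reporter−), without separate animals behind each value.

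The values were deposited on a log2 scale after normalization to the same distribution in each library, with the linear unit not given. Depth is therefore unknown, and each difference given is between libraries for the same gene or list. The table numbers the libraries of each population 2 and 3, and they are named here by that number, whose meaning the labels do not give. Stromal markers (*Pdgfra*, *Col1a1*, *Col1a2*, *Col3a1* and 6 others) had values in all libraries, and *Pdgfra* itself differed by a log2 fold change of 0.05 (SE 0.24). Of the other leukocyte lists, 4 of 6 T and NK cell markers (*Cd3e* and *Cd3g* among them), 2 of 4 dendritic (*Flt3*, *Siglech*), 2 of 5 mast cell (*Tpsb2*, *Mcpt4*) and 2 of 7 neutrophil markers (*S100a9*, *Ngp*) were blank in every library. The rest of these lists were not blank throughout, and *Camp* (neutrophil), *Zbtb46* (dendritic) and *Kit* (mast) in all 4. All 15 macrophage markers had a value in at least 3 libraries, although CD45-positive cells had been gated out, and their values are given below beside the ligands.

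CC chemokines are small secreted proteins named for adjacent cysteines near the amino terminus. They bind heparan sulfate on cells and matrix, act on G protein-coupled receptors of the CCR family, and recruit monocytes, eosinophils, lymphocytes and osteoclast precursors. Fibroblasts and osteoblasts are known to secrete *Ccl2* and *Ccl7* in response to inflammatory cytokines, whereas *Ccl3*, *Ccl4*, *Ccl6* and *Ccl9* are best known as products of myeloid cells, and *Ccl9* also as a product of osteoclasts.

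All 9 genes lie on chromosome 11 in 2 stretches (GENCODE M21, GRCm38, the build named in the submitters' processing notes). *Ccl2* (82035571 to 82037453), *Ccl7* (82045712 to 82047525), *Ccl11* (82057823 to 82062955) and *Ccl8* (82115185 to 82116799) are transcribed from the plus strand within 81.2 kb. The second stretch, 1409.0 kb further along, holds *Ccl5* (83525778 to 83530518), *Ccl9* (83572919 to 83578636), *Ccl6* (83587882 to 83593087) and *Ccl3* (83647844 to 83649355) on the minus strand and *Ccl4* (83662584 to 83664683) on the plus strand, within 138.9 kb. *Ccl2* overlaps the opposite-strand gene model *Gm17268*, which is not a symbol of the table, and *Ccl6* overlaps *E230016K23Rik*, which was blank in every library; whether counting used the strand is not given in the sources used here. Strings of 31 bases shared with transcripts of any other gene made up 0% of the transcript sequence of *Ccl2*, *Ccl7*, *Ccl8*, *Ccl3* and *Ccl4*, and at most 3.75%, in *Ccl9*, and no member shared such a string with another member.

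Upstream sequence was at hand for 4 of the 9 members, *Ccl3*, *Ccl6*, *Ccl8* and *Ccl9*, in the RefSeq table used here (GRCm38.p6). All of it is shown. These 4 were also the members higher in both libraries numbered 3 than in both numbered 2, as described below. No upstream sequence of another member was at hand for comparison, and a link of the motifs to that difference was not tested. Each run is the 250 bases before the RefSeq start site, 5′ to 3′ on the strand of the gene. For *Ccl3* that start lies outside the GENCODE gene coordinates given above, and its motif position is counted from the RefSeq start. Capitals mark matches to the motifs searched.
*Ccl9* (chr11:83578637-83578886, minus strand): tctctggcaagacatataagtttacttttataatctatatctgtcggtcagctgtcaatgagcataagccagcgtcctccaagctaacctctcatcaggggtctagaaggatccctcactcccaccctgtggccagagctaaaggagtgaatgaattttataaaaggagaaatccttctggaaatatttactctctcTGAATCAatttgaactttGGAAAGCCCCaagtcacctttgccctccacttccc
*Ccl6* (chr11:83593088-83593337, minus strand): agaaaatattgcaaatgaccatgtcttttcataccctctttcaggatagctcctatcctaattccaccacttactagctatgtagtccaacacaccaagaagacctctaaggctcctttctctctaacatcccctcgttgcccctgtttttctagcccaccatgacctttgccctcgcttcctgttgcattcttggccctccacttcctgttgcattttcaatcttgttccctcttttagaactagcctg
*Ccl3* (chr11:83649379-83649628, minus strand): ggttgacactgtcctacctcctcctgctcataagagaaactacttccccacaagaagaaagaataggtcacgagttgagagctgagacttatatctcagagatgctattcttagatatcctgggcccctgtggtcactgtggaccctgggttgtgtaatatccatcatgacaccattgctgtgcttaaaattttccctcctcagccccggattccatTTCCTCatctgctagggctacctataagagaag
*Ccl8* (chr11:82114935-82115184, plus strand): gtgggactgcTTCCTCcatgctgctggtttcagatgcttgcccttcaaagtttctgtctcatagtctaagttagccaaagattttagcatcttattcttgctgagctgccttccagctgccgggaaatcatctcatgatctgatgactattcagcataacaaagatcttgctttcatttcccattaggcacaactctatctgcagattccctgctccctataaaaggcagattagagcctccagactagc

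The motifs, searched on both strands, were AP-1 (TGANTCA), PU.1 (GAGGAA), C/EBP (TTGCNNAA), STAT (TTC and GAA separated by 4 bases) and NF-κB. *Ccl9* held an AP-1 match 53 to 47 bases and an NF-κB match 35 to 26 bases before its start, *Ccl3* a PU.1 match 33 to 28 bases and *Ccl8* a PU.1 match 240 to 235 bases before theirs. The letters of none of the 5 motifs are in the *Ccl6* window, and C/EBP and STAT matches are in none of the 4 windows. Among all 32817 upstream windows of this length, 6.75% held the AP-1, 3.9% the NF-κB, 23.3% the PU.1, 9.57% the C/EBP and 5.85% the STAT motif. The longest run common to the neighbours *Ccl6* and *Ccl9* was 13 bases, gccctccacttcc, compared with 7 to 9 bases for the other pairs.

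No member differed between PDGFRα reporter+ and reporter− cells at an adjusted p under 0.05 (limma, Benjamini-Hochberg over all genes tested), beside 0.0% of the 14415 genes. The adjusted p was 1 for each of the 7 members tested, and 0 of them, against 131 of all genes, had an unadjusted p under 0.05. The log2 fold change, the mean of the reporter+ libraries minus the mean of the reporter− libraries, was positive for 5 of the 7 members and for 49.1% of all genes. Its median was 0.35 over the members and −0.0035 over all genes tested. Without reporter− library 2 the median over the members was −0.44. It was 0.13 without reporter+ library 2, 0.015 without reporter+ library 3 and 0.30 without reporter− library 3. Leaving out a library unbalances the library numbers between the populations. In bulk RNA, more cells of a type and more RNA per cell cannot be told apart.

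**Figure D1:**
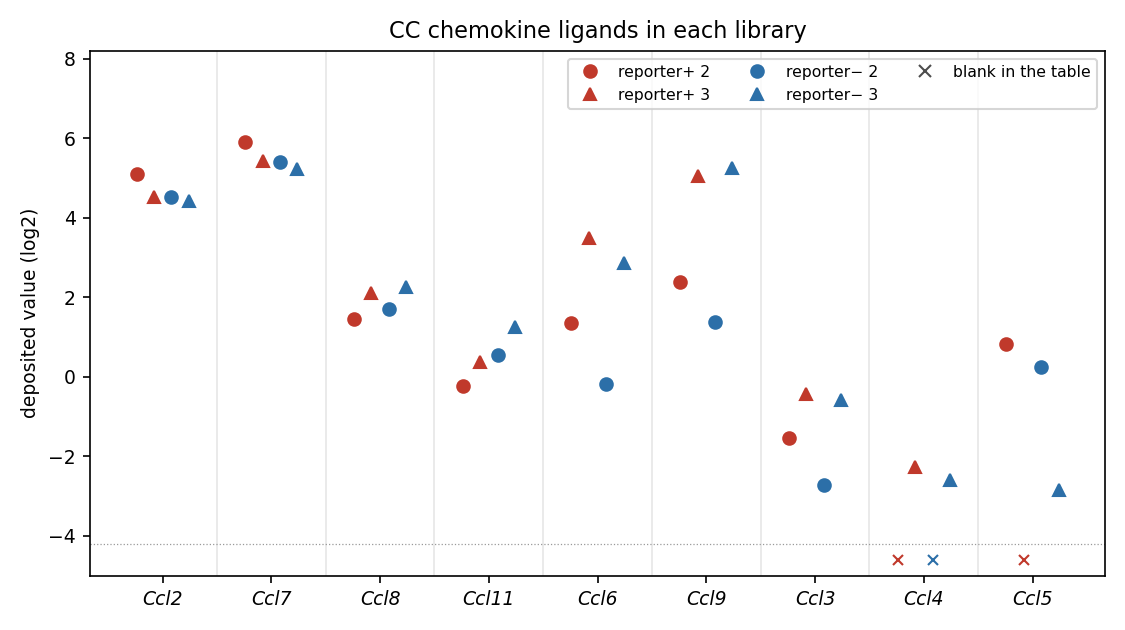
Deposited log2 value (y axis) of each CC chemokine ligand (x axis) in the 4 libraries, red for PDGFRα reporter+ and blue for reporter−, circles for number 2 and triangles for number 3, with crosses at the bottom for blanks. Red lies above blue for *Ccl2* and *Ccl7* and below for *Ccl11*, whereas triangles lie far above circles for *Ccl6*, *Ccl9* and *Ccl3*.

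Both reporter+ libraries lay above both reporter− libraries for 2 of the 7 members, *Ccl2* and *Ccl7*, compared with 7.59% of all genes. Both lay below for 1 member, *Ccl11*, compared with 8.1% of all genes. *Ccl2*, which draws monocytes and macrophages through the receptor CCR2, had log2 values of 5.11 and 4.52 in reporter+ libraries 2 and 3 and of 4.52 and 4.42 in reporter− libraries 2 and 3. Reporter+ library 2 stood above the rest, and the other reporter+ library exceeded the higher reporter− library by only 0.0040. The log2 fold change of *Ccl2* was 0.35 (SE 0.24), or 1.27-fold.

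*Ccl7*, a second CCR2 ligand encoded next to *Ccl2*, had log2 values of 5.92 and 5.42 in reporter+ libraries 2 and 3 and of 5.41 and 5.24 in reporter− libraries 2 and 3. Its populations were separated by 0.014, again with reporter+ library 2 highest, and its log2 fold change was 0.35 (SE 0.22). When each library was centred on its median over the tested genes (1.70 to 1.73), both genes overlapped between populations, by 0.027 for *Ccl2* and 0.017 for *Ccl7*. Within the libraries numbered 2 the reporter+ value was higher by 0.59 for *Ccl2* and 0.51 for *Ccl7*, and within those numbered 3 by 0.11 and 0.18.

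The profiles of *Ccl2* and *Ccl7* were close to each other. With each gene centred on its own mean over the 4 libraries, the nearest to *Ccl7* by Euclidean distance, among 10223 genes whose log2 values averaged 0 or more, was *Ccl2*, and the reverse held as well, at a distance of 0.076. The next nearest were *Rab3il1* (0.088) and *Nmi* (0.10) to *Ccl7*, and *Smpdl3b* (0.11) and *Rab3il1* (0.13) to *Ccl2*. Distances from *Ccl7* to the other members with a mean of at least 0 were far larger, from 1.11 for *Ccl8* to 3.64 for *Ccl9*. Each distance rests on 4 libraries and is a description.

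*Ccl11*, or eotaxin, which attracts eosinophils through CCR3, went the other way. Its log2 values were −0.24 and 0.37 in reporter+ libraries 2 and 3, and 0.55 and 1.25 in reporter− libraries 2 and 3. Both reporter+ libraries were below both reporter− libraries, with a gap of 0.18, and the gap was 0.21 with median centring. The log2 fold change was −0.83 (SE 0.40, unadjusted p = 0.0977 by limma), 1.78-fold higher in reporter− cells, and the difference was of like size within number 2 (−0.79) and within number 3 (−0.88). With a pseudocount of 1 added on the linear scale the log2 fold change was −0.49. A larger absolute log2 fold change was found for 6.10% of all genes tested. The study's supplement lists *Ccl11* among the genes significantly lower in reporter+ cells, with the same log2 fold change of −0.83. The test behind that list is not named in the study's methods. All 6 endothelial markers were measured in every library, although CD31-positive cells had been gated out. Of these, 5 were lower in reporter+ cells within both numbers, compared with 24.8% of all genes. Their summed linear levels were 0.311 and 1.21 in reporter+ and 1.11 and 3.73 in reporter− libraries 2 and 3. The part of endothelial RNA in the *Ccl11* values was not tested.

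*Ccl8*, a further monocyte chemoattractant of the first stretch, had log2 values of 1.45 and 2.12 in reporter+ libraries 2 and 3, and of 1.71 and 2.27 in reporter− libraries 2 and 3. The populations overlapped, with a log2 fold change of −0.20 (SE 0.34). The reporter+ value was lower by 0.26 within number 2 and by 0.15 within number 3. The sign turned when the numbers were unbalanced, to 0.13 without reporter+ library 2 and 0.072 without reporter− library 3.

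**Figure D2:**
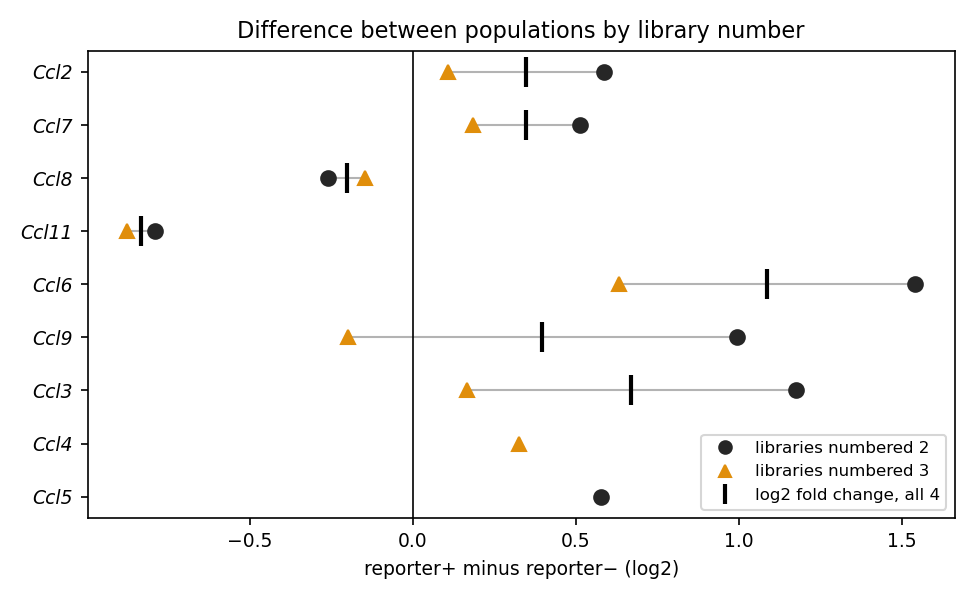
PDGFRα reporter+ minus reporter− log2 value (x axis) of each CC ligand (y axis) within the libraries numbered 2 (circles) and 3 (triangles), with vertical bars for the log2 fold change over all 4. *Ccl11* is at −0.79 and −0.88, *Ccl6* spans 0.63 to 1.54, and *Ccl9* lies on both sides of 0.

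*Ccl6*, *Ccl9* and *Ccl3* of the second stretch, all ligands of CCR1, varied most of the 7 members between libraries of the same population. *Ccl6* had log2 values of 1.36 and 3.50 in reporter+ libraries 2 and 3 and of −0.18 and 2.87 in reporter− libraries 2 and 3. Reporter− library 2 was the lowest and the libraries numbered 3 were the highest, so that the populations overlapped. The log2 fold change was 1.09 (SE 1.26), the largest of the members, with differences of 1.54 within number 2 and 0.63 within number 3. Leaving out reporter− library 2, which unbalanced the numbers, gave −0.44.

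*Ccl9* had log2 values of 2.38 and 5.06 in reporter+ libraries 2 and 3 and of 1.38 and 5.26 in reporter− libraries 2 and 3. It was higher in reporter+ cells by 0.99 within number 2 and lower by 0.20 within number 3 (difference −0.20). The log2 fold change was 0.40 (SE 1.58). With the numbers unbalanced it was −0.94 without reporter+ library 3 and −1.54 without reporter− library 2.

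*Ccl3*, a CCR1 ligand that draws macrophages and T cells, had log2 values of −1.54 and −0.43 in reporter+ libraries 2 and 3 and of −2.72 and −0.59 in reporter− libraries 2 and 3. The populations overlapped, and the log2 fold change of 0.67 (SE 0.88) reflected differences of 1.18 within number 2 and 0.17 within number 3. Leaving out reporter− library 2, which unbalanced the numbers, gave −0.39. With a pseudocount of 1 added on the linear scale the log2 fold change was 0.14.

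*Ccl4*, which is encoded beside *Ccl3*, was blank in both libraries numbered 2. Its log2 values were −2.26 in reporter+ library 3 and −2.58 in reporter− library 3. *Ccl5*, or RANTES, a ligand of CCR1 and CCR3, had log2 values of 0.82 in reporter+ library 2, 0.25 in reporter− library 2 and −2.85 in reporter− library 3, and was blank in reporter+ library 3. In reporter− cells, the only population with a *Ccl5* value in both numbers, number 3 minus number 2 was −3.10. No such difference could be taken for *Ccl4*. Blanks left *Ccl4* and *Ccl5* out of the test over all 4 libraries.

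Across the members, 4 of 7 (*Ccl2*, *Ccl7*, *Ccl6* and *Ccl3*) were higher in reporter+ cells within both numbers, compared with 22.1% of all genes, and 2 of 7 (*Ccl11* and *Ccl8*) were lower within both, compared with 24.8%. The median difference of the members was 0.59 within number 2 and 0.11 within number 3, against 0.0011 and −0.020 over all genes. Each such value compares 1 library with 1 and has no test.

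**Figure D3:**
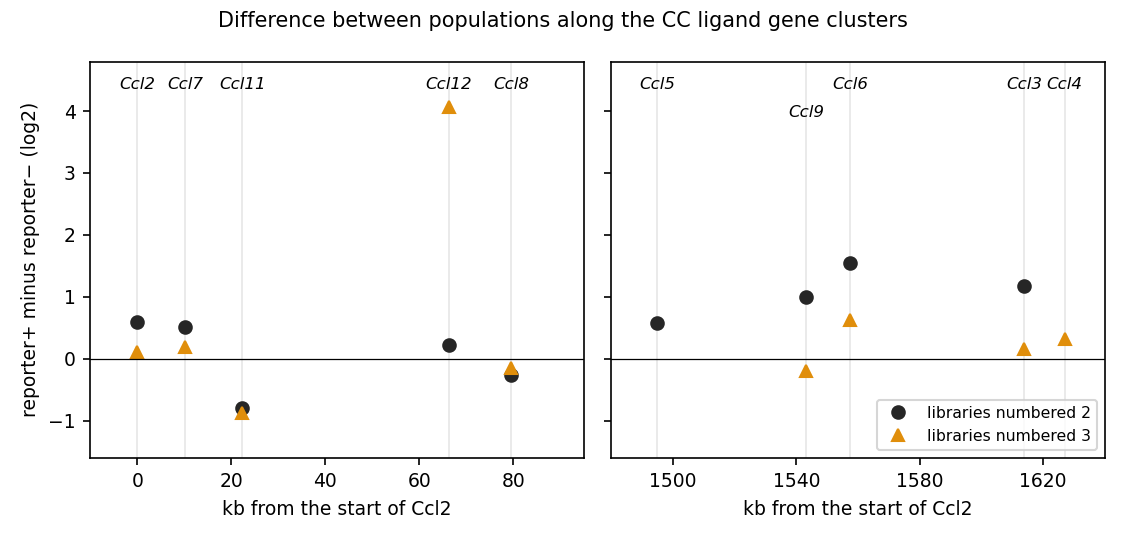
PDGFRα reporter+ minus reporter− log2 value (y axis) against distance in kb from the start of *Ccl2* (x axis), for the members and *Ccl12* on chromosome 11, circles for number 2 and triangles for number 3. In the left stretch *Ccl2* and *Ccl7* lie above 0, *Ccl11* and *Ccl8* below, and *Ccl12* reaches 4.06 in number 3, while in the right stretch all points but that of *Ccl9* in number 3 lie above 0.

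*Ccl9*, *Ccl6*, *Ccl3* and *Ccl8* were higher in both libraries numbered 3 than in both numbered 2, compared with 36.4% of all genes, and their populations overlapped. The log2 values of *Ccl9*, *Ccl6* and *Ccl3* were higher in number 3 than in number 2 by over 1 in both populations, 3 of 7 members compared with 5.35% of all genes. *Ccl9* was higher by 2.69 in reporter+ and 3.88 in reporter− cells, or 6.43-fold and 14.7-fold. The corresponding differences were 2.14 and 3.05 for *Ccl6*, and 1.11 and 2.12 for *Ccl3*. Taking the mean of both populations, 0.708% of all genes had a larger difference than *Ccl9*, 1.36% than *Ccl6* and 3.84% than *Ccl3*. *Ccl11* (0.61 and 0.70) and *Ccl8* (0.67 and 0.55) were higher in number 3 by smaller amounts, and *Ccl2* (−0.58 and −0.10) and *Ccl7* (−0.50 and −0.17) were lower. Over all genes the SD of this difference was 0.95 in reporter+ and 0.90 in reporter− cells.

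**Figure D4:**
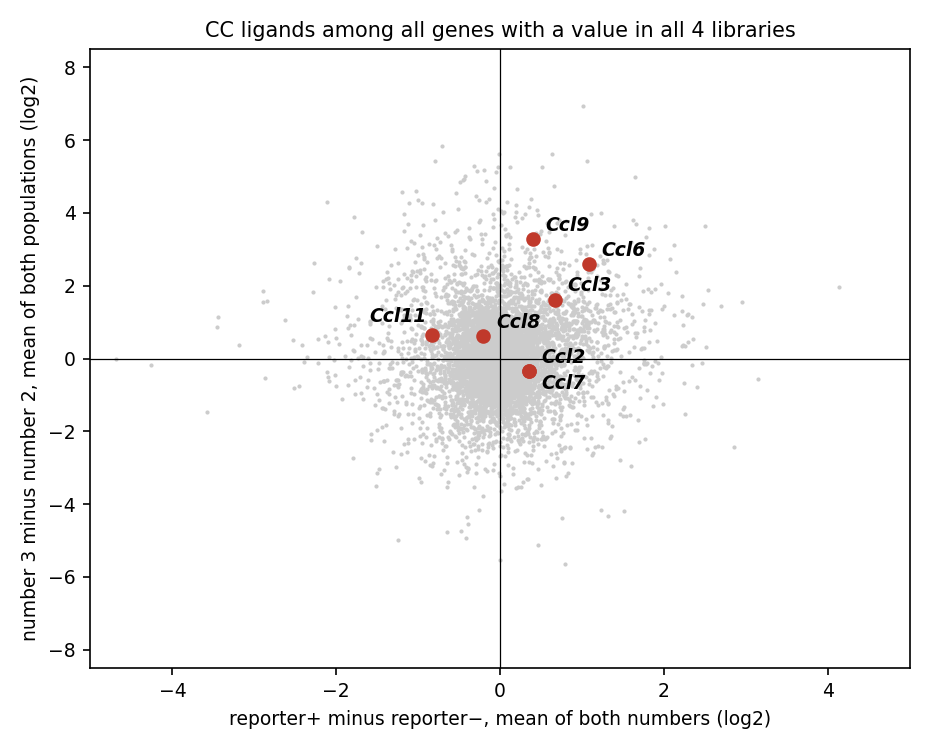
Each grey point is 1 of the 14415 genes tested, by the PDGFRα reporter+ minus reporter− difference (x axis, log2) and by the number 3 minus number 2 difference (y axis, log2), with the 7 members in red. *Ccl9*, *Ccl6* and *Ccl3* lie high on the y axis, *Ccl11* lies left of 0, and the points of *Ccl2* and *Ccl7* coincide.

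Macrophage markers were measured in the same libraries. Of the 15 macrophage markers, 14 were measured in every library, and all 14 had a positive log2 fold change, with a median of 0.96, and 9 of them lay higher without overlap, compared with 7.59% of all genes. None had an adjusted p under 0.05 in limma, and 5 had an unadjusted p under 0.05, beside 131 of the 14415 genes. *Lyz2*, the lysozyme of myeloid cells, had log2 values of 7.65 and 7.88 in reporter+ and 6.27 and 7.25 in reporter− libraries 2 and 3, and *C1qb*, a chain of complement C1q, had 2.04 and 1.76 against 0.23 and 0.62. *Ptprc*, the gene of CD45, had −1.28 and −0.39 against −2.30 and −1.22. No macrophage marker was blank in the whole table, and *Fcgr1* was blank in reporter− library 2. Summed on the linear scale, the list reached 245.6 and 287.6 in reporter+ and 95.8 and 185.3 in reporter− libraries 2 and 3, so that reporter+ exceeded reporter− 2.56-fold within number 2 and 1.55-fold within number 3. *Lyz2* made up 80.3% to 82.3% of the sum, and without it the ratios were 2.39 and 1.60. The same ratios were 2.91 and 1.55 for *Ccl6*, 2.26 and 1.12 for *Ccl3*, 1.99 and 0.871 for *Ccl9*, 1.50 and 1.08 for *Ccl2*, 1.43 and 1.136 for *Ccl7*, 0.834 and 0.904 for *Ccl8* and 0.578 and 0.544 for *Ccl11*. The part of macrophage RNA in the values of the members was not tested.

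**Figure D5:**
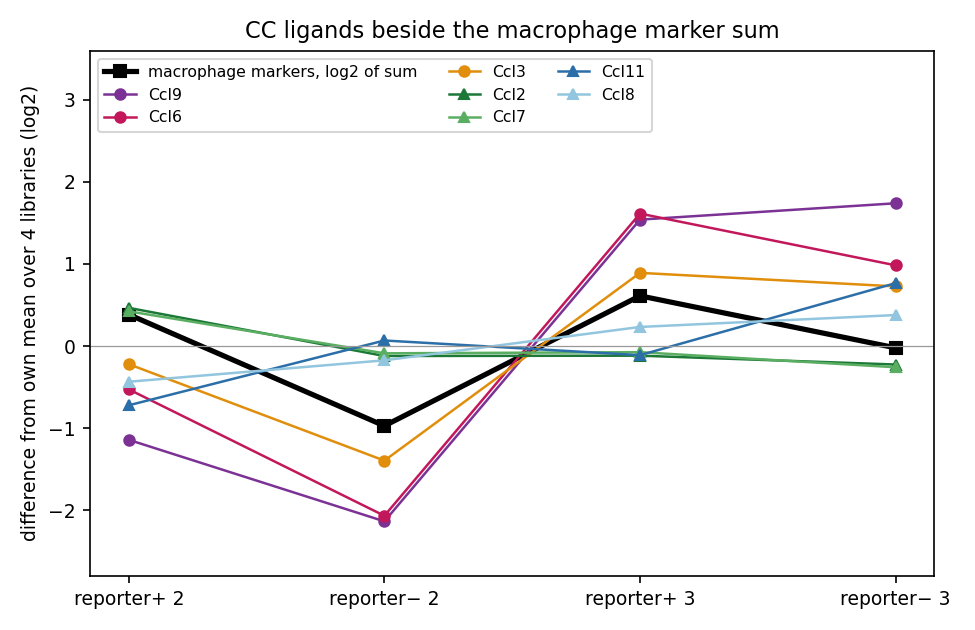
Log2 value of 7 CC ligands and log2 of the summed linear level of 15 macrophage markers (black), each minus its own mean over the 4 libraries (y axis), by library (x axis), with lines only to guide the eye. The marker sum is lowest in PDGFRα reporter− library 2, as are *Ccl6*, *Ccl9* and *Ccl3*, while *Ccl11* is lowest in reporter+ library 2.

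From number 2 to number 3 the macrophage marker sum was 1.17-fold in reporter+ and 1.93-fold in reporter− cells. The same values were 6.43 and 14.7 for *Ccl9*, 4.42 and 8.3 for *Ccl6*, and 2.16 and 4.36 for *Ccl3*. They were 1.59 and 1.47 for *Ccl8*, 1.53 and 1.62 for *Ccl11*, 0.668 and 0.930 for *Ccl2*, and 0.708 and 0.889 for *Ccl7*. In the reporter+ libraries *Cd68*, *C1qa*, *C1qb* and *C1qc* were lower in number 3 (differences of −0.024 to −0.28), and 9 of the 14 markers were higher in number 3 in both populations, compared with 41.1% of all genes. *Camp*, the only neutrophil marker with a value in all libraries, was higher in number 3 by 2.19 and 0.97 on the log2 scale. The endothelial sum was 3.89-fold and 3.38-fold in number 3, whereas the summed inducer transcription factors were 0.776-fold and 0.768-fold and the inducer receptors 0.925-fold and 0.878-fold. The endothelial sum followed *Tek*, a receptor of angiopoietins, whose log2 values were −3.00 and 0.052 in reporter+ and −2.50 and 1.10 in reporter− libraries 2 and 3, and 3 of the 6 endothelial markers were higher in both populations (*Cdh5* differed by −1.65 in reporter+ cells). The stromal sum was 1.38-fold and 1.24-fold, with *Col3a1* higher by 0.93 and 1.12, but the median difference of the 10 stromal markers was −0.098 and −0.28 and 3 of the 10 were higher in both populations. Within the stromal list *Postn*, the matrix protein periostin, was higher in number 3 by 3.17 and 2.89 on the log2 scale. Whether any of these moved together with the ligands for a shared reason was not tested.

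Of 12 other CC ligand genes, 5 were blank in every library, 2 had a value in some libraries and 5 in all. None of the 5 had an adjusted p under 0.05 or an unadjusted p under 0.05 in limma, and their median log2 fold change was 0.42. *Ccl12*, a CCR2 ligand encoded between *Ccl11* and *Ccl8*, had log2 values of −2.67 and 1.61 in reporter+ and −2.89 and −2.45 in reporter− libraries 2 and 3. Reporter+ library 3 alone stood out, and the log2 fold change was 2.14 (SE 1.49). *Ccl27a*, an epithelial chemokine, had a log2 fold change of −0.26 (SE 0.41).

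Receptors for the members were sparse. Of 10 CC receptor genes, 3 were blank in every library, 5 had a value in some and 2 in all. *Ccr1*, the receptor of *Ccl3*, *Ccl5*, *Ccl6* and *Ccl9*, had log2 values of −2.14 and −1.25 in reporter+ and −2.78 and −2.46 in reporter− libraries 2 and 3. Its reporter+ libraries lay higher without overlap, compared with 7.59% of all genes (log2 fold change 0.93, SE 0.53, adjusted p = 1). *Ccr2* was listed only in reporter− library 3, at −7.43. *Ccr3* was listed in 3 libraries, from −7.26 to −4.41. Of the scavenging receptors, *Ackr2* had log2 values of −2.41 and −3.79 in reporter+ and −2.19 and −5.06 in reporter− libraries 2 and 3. *Ackr1* and *Ackr4* had log2 fold changes of −0.93 (SE 0.75) and −0.23 (SE 0.39). The reporter+ libraries lay lower without overlap for *Ackr1*, with a gap of 0.078, compared with 8.1% of all genes. None of the 5 receptors tested in these lists had an unadjusted p under 0.05.

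Listed genes of the pathways that induce CC ligands were measured in every library, and none had an adjusted p under 0.05 (limma). Of 9 receptors and adaptors, 8 had a positive log2 fold change, the median was 0.19, and 0 had an unadjusted p under 0.05. The largest values were those of *Il13ra1* (0.51, SE 0.66), a receptor chain for IL-13, *Cd14* (0.51, SE 0.41), the lipopolysaccharide co-receptor, and *Tlr2* (0.48, SE 0.41). Of 11 transcription factors and inhibitors, 6 had a positive and 5 a negative log2 fold change, with a median of 0.043 and 0 unadjusted p under 0.05. *Rela*, a subunit of NF-κB, had −0.078 (SE 0.28). *Stat6*, which acts upstream of eotaxin after IL-4 and IL-13, had −0.030 (SE 0.29).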

How the data were processed

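Total RNA of FACS-sorted mouse periosteal cells was sequenced as stranded paired-end libraries, 2 per population. Per the labels, the submitters' processing notes name bcl2fastq 2.17.1.14, Partek 7.0 and GRCm38.p6. The aligner, the counting and any filter are not given in the sources used here. The authors deposited log2 values, with the same quartiles (−1.47, 1.48 and 3.00) and extremes (−10.07 and 11.73) in each library. With depth unknown, counting error could not be computed. Column headings number the libraries 2 and 3 and the labels 1 and 2, so that columns were assigned to populations only. The methods state that several mice were pooled to yield a cell population, but the sources used here do not say whether the libraries are separate pools or whether equal numbers share a pool, and p-values measure the spread between these libraries. Separate tests of single genes were not made, since an exact two-sided permutation p cannot fall below 0.333.

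Populations were compared in limma 3.58.1 (R 4.3.3) by lmFit and eBayes with a variance trend, two-sided and without a block. Adjustment was by Benjamini-Hochberg across the 14415 genes measured in every library, at a threshold of 0.05, after the script had been tested on simulated data. Blanks left a gene out. Tables were made in Python 3.11.15 with pandas 2.3.3, and plots with matplotlib 3.10.9. Named genes were the members, the listed ligands, receptors, inducers and markers, and the 3 genes nearest in profile to each of the 2 members with the highest mean. The members and lists were chosen with earlier results of these data known. Alternatives were a block on the library number, no variance trend, pseudocounts of 1 and 0.1, a mean of at least 0, blanks at the library minimum, median centring and leaving out each library. Some listed genes are not reported here.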

Additional observations from a re-analysis of the deposited data

Results flagged for a closer look

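*Ccl9* went opposite ways in the 2 library numbers. Its log2 value was higher in PDGFRα reporter+ than in reporter− cells by 0.99 in the libraries numbered 2, whereas the difference was −0.20 in those numbered 3. It was the only member of the 7 tested with opposite signs. The difference between the numbers rests on 1 library each and was not tested.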

How the results depend on the processing

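No member had an adjusted p under 0.05 in limma under the 12 alternatives, but neither did any other gene in 11 of them, so that this says nothing of stability. Of 28 log2 fold changes with a library left out, which unbalances the numbers and leaves 1 library assumed to vary like the other population, 6 turned: −0.39 for *Ccl3*, −0.44 for *Ccl6* and −1.54 for *Ccl9* without reporter− library 2, −0.94 for *Ccl9* without reporter+ library 3, and 0.13 and 0.072 for *Ccl8* without reporter+ library 2 and reporter− library 3. Leaving out 1 library at a time, the log2 fold change ranged from 0.056 to 0.64 for *Ccl2*, from 0.099 to 0.60 for *Ccl7*, from −1.18 to −0.48 for *Ccl11*, from −0.54 to 0.13 for *Ccl8*, from −0.44 to 2.61 for *Ccl6*, from −1.54 to 2.34 for *Ccl9* and from −0.39 to 1.73 for *Ccl3*. With pseudocounts of 1 and 0.1 it was 0.14 and 0.48 for *Ccl3* and −0.49 and −0.78 for *Ccl11*; the other members moved by less than 1.5 times and none changed sign. The median over the members ranged from −0.44 to 0.30 with a library left out. The members without overlap numbered 3 of 7 (15.7% of all genes), 4 to 6 with a library left out (55.7% to 60.3% of all genes), and 1 (*Ccl11*) with median centring (15.9%).

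Libraries sharing a number deviated together from their population means (r = 0.681 over genes, which are not independent), which is a hint of pairing from the data and not from the labels. With the library number as a replicate block, 29 genes and 0 members had an adjusted p under 0.05, and 913 genes an unadjusted p under 0.05, against 0 and 131 without it. Among the members, *Ccl2*, *Ccl6*, *Ccl7* and *Ccl11* (4 of 7) had an unadjusted p under 0.05 with the block, against 0 without it. The adjusted p with this block was 0.122 for *Ccl6*, 0.274 for *Ccl11*, 0.580 for *Ccl7* and 0.696 for *Ccl2*. With the block but no variance trend, 0 genes passed, beside 941 with an unadjusted p under 0.05, among them *Ccl6* and *Ccl11*.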

Other observations

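Reporter+ library 3 had the highest value of *Ccl12*, *Ccl17* and *Ccl28*, ligands chosen here after their values were seen. *Ccl17*, a ligand of CCR4, had log2 values of −5.87 and −3.65 in reporter+ and −5.16 and −5.21 in reporter− libraries 2 and 3. *Ccl28*, a mucosal chemokine, had −4.14 and −2.84 against −4.06 and −3.78. *S100a8*, a calcium-binding protein of neutrophils, was also highest in that library, with 1.39 compared with −4.21 in reporter+ library 2, −1.14 in reporter− library 3 and a blank in reporter− library 2. With blanks set to the lowest value of their library, the log2 fold change was 0.16 (SE 3.92) for *Ccl4* and −3.32 (SE 4.05) for *Ccl5*. The sign for *Ccl5* came from the value filled in for reporter+ library 3. Within number 2, where both populations had a *Ccl5* value, the reporter+ value was higher by 0.58.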
